A study of Mus musculus with 9 samples.

Results

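Transcripts of 9 genes of fatty acid handling and mitochondrial uncoupling were followed in 9 libraries of mouse cardiac left ventricle RNA. The genes are the nuclear receptor Ppara, its coactivator Ppargc1a, the mitochondrial carriers Ucp2 and Ucp3, the acyl-CoA thioesterases Acot1 and Acot2, the pyruvate dehydrogenase kinase Pdk4, the secreted lipase inhibitor Angptl4 and the lipid droplet protein Plin5. They were chosen by symbol from the 20634 genes listed, with their levels in these same libraries already known, so their levels and their differences between groups are given as a description and without a test of their own. All 9 were found and all 9 passed the filter on low counts, which left 15549 genes.

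The 4 groups were all on a C57BL/6 background, given running wheels at intervals to bring on heart disease, and collected at 6 months of age. Wild-type (WT) mice and mice lacking delta-sarcoglycan (KO), a part of the membrane complex that links the muscle cell to its matrix, drank plain water (vehicle) or water delivering the thromboxane-prostanoid receptor antagonist ifetroban at 25 mg/kg/day from weaning. Each group had 2 libraries except the ifetroban-treated KO, which had 3, and the labels do not say that each came from a separate animal, so the error given is the spread between libraries, which may be technical. The labels name no tissue limit for the knockout and do not say which part of the gene, Sgcd, is deleted.

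Peroxisome proliferator-activated receptors (PPARs) are nuclear receptors that bind fatty acids and, paired with retinoid X receptors, switch on genes for the uptake, storage and oxidation of fat. PPAR alpha, the product of Ppara, is the main form in heart muscle together with PPAR delta, and PGC-1 alpha, the product of Ppargc1a, is a coactivator that raises both PPAR-driven transcription and the making of mitochondria. In heart the receptor's best-known targets include Pdk4, Angptl4, Ucp3, Acot1 and Plin5, which are induced by fasting and by a rise in circulating fatty acids.

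The libraries held 21510263 to 30182955 counts. They fell into 2 sets by how levels varied with transcript length over 13051 protein-coding genes. The rank correlation of a library's deviation with length, called the length slope here, was -0.52 to -0.40 in WT vehicle replicate 1, both KO vehicle libraries and KO ifetroban replicate 1, and 0.38 to 0.43 in WT vehicle replicate 2, both WT ifetroban libraries and KO ifetroban replicates 2 and 3. KO ifetroban replicate 1 is ifetroban by its title and source name and vehicle by its treatment label. Sgcd measured 20.9 to 23.7 CPM (counts scaled by library size and TMM factor) in the WT libraries of positive slope and 12.9 to 13.3 CPM in the KO libraries of positive slope, while WT vehicle replicate 1, at 8.36 CPM, lay within the range of the KO libraries of negative slope, 7.30 to 9.64 CPM. A count over the whole gene does not separate a deleted part from the rest, so it does not check that label. Cardiomyocyte markers (10 of 10 tested) summed to 52606 to 65262 CPM in every library, and the atrial light chain Myl7 was at 0 to 0.22 CPM in all 9.

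With ifetroban in KO, all 9 genes had a positive log2 change, from 0.16 to 1.31 with a median of 0.82, where the median of all tested genes was 0.01 and 51.2% of them were above 0 (51.9% for ifetroban in WT, 47.1% and 47.8% for genotype under vehicle and under ifetroban). The largest were Angptl4, Acot1, Pdk4, Ucp3 and Ppara. With ifetroban in WT, 5 were positive and 4 negative, with a median of 0.13. Against WT vehicle, KO vehicle had 3 higher and 6 lower, with a median of -0.31 (2 and 7 with DESeq2 size factors, where Pdk4 was negative). None of the 9 was called in any comparison by the quasi-likelihood test of edgeR at an adjusted p of 0.05, where the share of all genes called was 0.0% for the 2 ifetroban comparisons and for their interaction, 0.0515% between genotypes on vehicle and 0.0386% between genotypes on ifetroban. In both ifetroban comparisons edgeR called 0 genes, as did DESeq2 and limma-voom, and 615 genes in KO and 350 in WT had an unadjusted p under 0.05. Because the choice of the 9 rested on these contrasts, nothing is read from their counts.

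**Figure D1:**
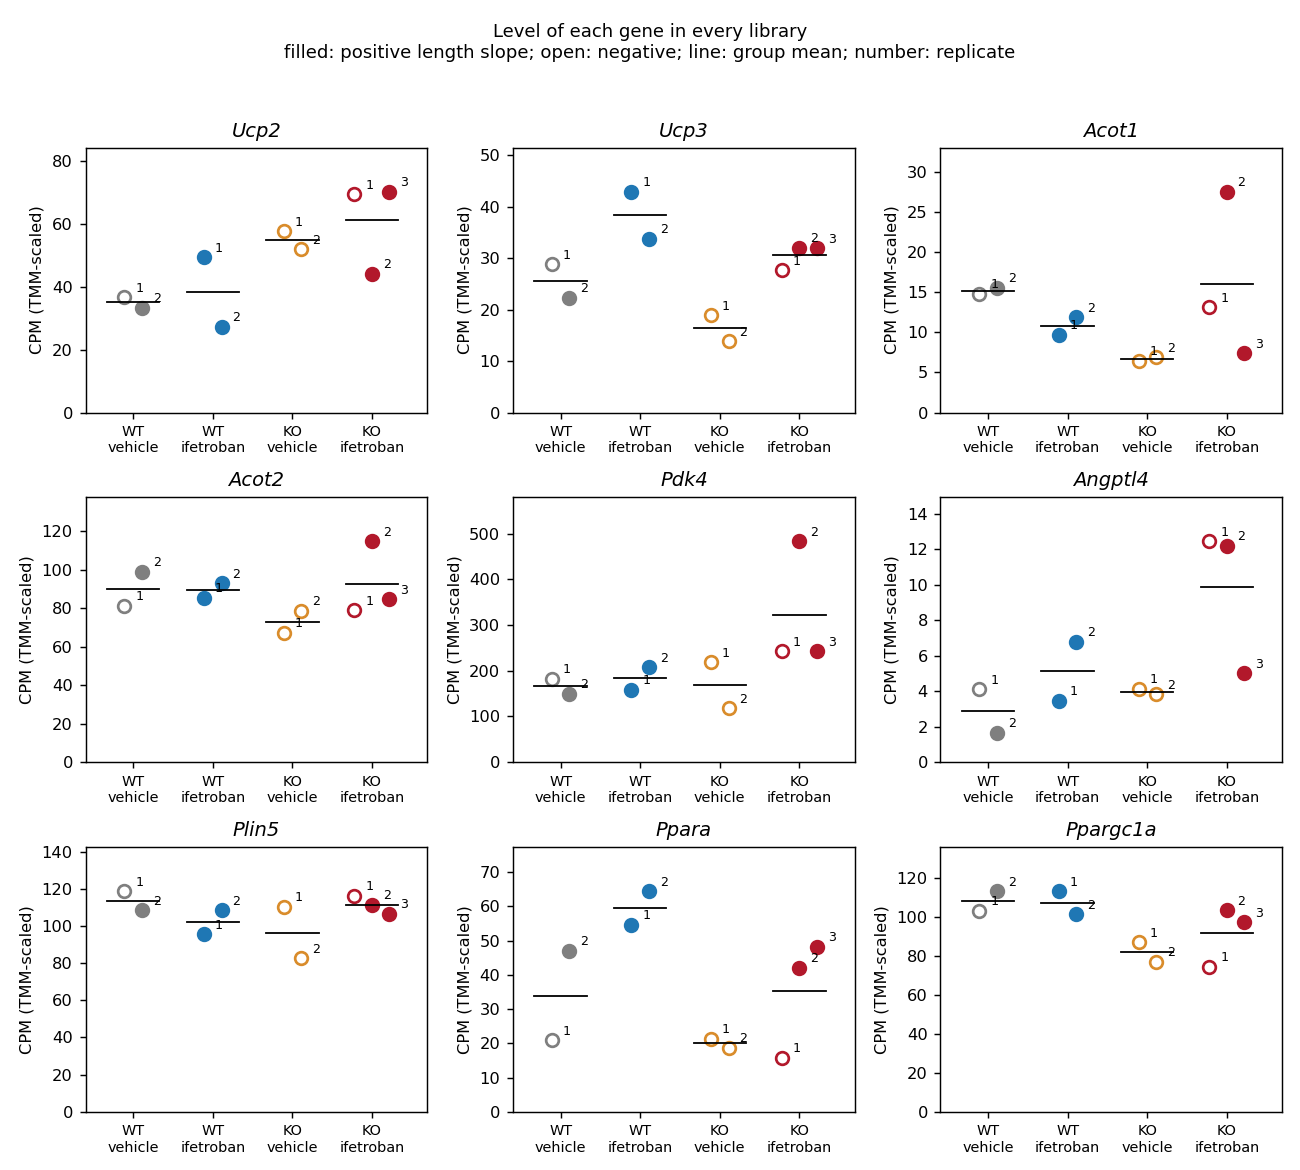
Level of each of the 9 genes in every library, in CPM scaled with TMM factors (vertical axes start at 0), by group, with the group mean as a line and the replicate number beside each point; open points are libraries of negative length slope and filled points those of positive slope. Ucp3, Acot1, Acot2, Pdk4 and Angptl4 had every KO ifetroban point above both KO vehicle points, and Ppara split by open and filled points.

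Relative to transcript length, the 9 genes spanned a wide range of levels. The mean over the 9 libraries was 63.9 CPM per kb for Pdk4, 53.7 for Plin5, 39.6 for Acot2, 15.0 for Ppargc1a, 12.3 for Ucp2, 11.5 for Ucp3, 10.9 for Ppara, 4.82 for Acot1 and 1.80 for Angptl4. Neighbours in this order overlapped over libraries, except Acot2 (30.7 to 52.3) with Ppargc1a (11.5 to 17.5). Plin5 varied least, 1.44-fold from its lowest to its highest library, and Angptl4 most, 7.50-fold, on the lowest counts of the set (41 to 384 per library, against 2942 to 15197 for Pdk4). No library was high for all of them: KO ifetroban replicate 2 was the highest for Acot1, Acot2 and Pdk4, and KO vehicle replicates 1 and 2 were the lowest for 2 and 3 of the 9 genes.

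Ppara (ENSMUSG00000022383, mm10 chromosome 15, 85734983 to 85802819, plus strand) encodes the receptor itself. It measured 20.8 and 47.1 CPM in WT vehicle, 54.6 and 64.5 in WT ifetroban, 21.3 and 18.8 in KO vehicle, and 15.8, 42.1 and 48.3 in KO ifetroban. The WT groups did not overlap, the KO groups did, since KO ifetroban replicate 1 was the lowest of all libraries. The log2 change with ifetroban was 0.82 ± 0.45 (SE) in KO and 0.81 ± 0.48 in WT, and that of genotype was -0.76 ± 0.48 under vehicle and -0.75 ± 0.43 under ifetroban.

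Ppara levels followed the length slope rather than the groups: the 4 libraries of negative slope lay at 15.8 to 21.3 CPM and the 5 of positive slope at 42.1 to 64.5 CPM. The mean difference between those sets was 1.41 on the log2 scale, and 0.52% of all tested genes had a larger one, while 15.9% had every positive-slope library above every negative-slope one. The longest Ppara transcript has 3413 bases, near the median of 3458 bases for the tested protein-coding genes. The slope names 2 sets of libraries here, and the part of transcript length in the Ppara split was not tested. Among the negative-slope libraries alone, with KO ifetroban replicate 1 as the only ifetroban library, the log2 change with ifetroban in KO was -0.34. With the slope as a term in the model it was -0.24. The genotype difference under vehicle was -0.05 among negative-slope libraries alone, with WT vehicle replicate 1 as the only WT library. The change with ifetroban in WT was 0.33 among positive-slope libraries alone, with WT vehicle replicate 2 as the only vehicle library. Neither an ifetroban difference nor the genotype difference under vehicle in Ppara can therefore be told apart from the length slope in these libraries. Under ifetroban both genotypes have positive-slope libraries. There KO ifetroban replicates 2 and 3, at 42.1 and 48.3 CPM, lay below WT ifetroban, at 54.6 and 64.5 CPM. That genotype difference was -0.40 without KO ifetroban replicate 1, and 15.0% of all genes had KO ifetroban wholly below WT ifetroban. Without both WT vehicle replicate 1 and KO ifetroban replicate 1, edgeR called Ppara for ifetroban in KO (1.17) and for genotype under vehicle (-1.23), but then all KO vehicle libraries had a negative slope and all the libraries they were set against a positive one.

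Ppargc1a (ENSMUSG00000029167, chromosome 5, 51454250 to 51567726, minus strand) encodes the coactivator PGC-1 alpha. Its level was 103 and 113 CPM in WT vehicle, 113 and 101 in WT ifetroban, 87.0 and 76.9 in KO vehicle, and 74.3, 103 and 97.2 in KO ifetroban. Both KO vehicle libraries lay below every WT library, by -0.40 ± 0.17 on the log2 scale against WT vehicle, and 17.6% of all tested genes had KO vehicle wholly below WT vehicle. The change with ifetroban was 0.16 ± 0.16 in KO, where the groups overlapped, and -0.01 ± 0.17 in WT. Within the negative-slope libraries the genotype difference under vehicle was -0.33 and the change with ifetroban in KO was -0.14.

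The 2 uncoupling proteins lie next to each other, Ucp3 (ENSMUSG00000032942, chromosome 7, 100472990 to 100486432) ending 6904 bases before the start of Ucp2 (ENSMUSG00000033685, 100493337 to 100502020), both on the plus strand. Ucp3, the muscle form, is a PPAR target tied to fatty acid oxidation, with a transport role that is still debated, while Ucp2 is made in many cell types, immune cells among them. Of the 8 genes with a promoter in the RefSeq table (GRCm38.p6, 250 bases before to 50 after the start; Angptl4 has no entry), that of Ucp3 was the one that held a match, with up to 2 mismatches, to the DR1 element, a direct repeat of AGGTCA with 1 base between the copies that PPARs bind with their partner. It is shown because the ifetroban difference of Ucp3 in KO was the largest of the 9 relative to its SE, with capitals for the matches to AGGTCA (149 bases before the start) and to the repeat (51 bases before the start).
Ucp3 promoter, chr7:100472741-100473040, plus strand: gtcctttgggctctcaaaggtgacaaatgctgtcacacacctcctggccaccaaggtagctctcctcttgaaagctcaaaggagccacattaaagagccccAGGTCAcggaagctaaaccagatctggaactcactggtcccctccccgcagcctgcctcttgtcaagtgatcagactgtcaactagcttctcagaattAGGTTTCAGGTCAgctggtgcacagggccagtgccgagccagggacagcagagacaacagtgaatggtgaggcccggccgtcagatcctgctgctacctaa
Such a match, on either strand, was in 3.86% of 32851 promoters of this length, and the single AGGTCA, which the repeat contains, in 16.3%. TCAAGGTCA, the element of the estrogen-related receptors (0.423% of promoters, and itself holding AGGTCA), and GTAAACA, that of the forkhead factors (3.65%), had no match in the 8. A match is a description of letters and no evidence of binding.

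Ucp3 stood at 28.9 and 22.3 CPM in WT vehicle, 42.9 and 33.8 in WT ifetroban, 18.9 and 13.9 in KO vehicle, and 27.7, 32.1 and 32.0 in KO ifetroban. Ifetroban libraries were above vehicle libraries in each genotype with no overlap, and the KO vehicle libraries were the lowest of all. Groups were likewise separated with ifetroban higher for 10.4% of all genes in KO and 17.6% in WT. The log2 change with ifetroban was 0.90 ± 0.19 in KO (30.6 ± 2.5 CPM, SD, n = 3, against 16.4 ± 3.5, n = 2) and 0.58 ± 0.20 in WT (38.3 ± 6.5, n = 2, against 25.6 ± 4.6, n = 2). Under vehicle KO was lower than WT by -0.64 ± 0.20, and under ifetroban by -0.33 ± 0.18, again with no overlap.

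Among the negative-slope libraries alone the Ucp3 difference with ifetroban in KO was 0.76, with a single library in the ifetroban arm, KO ifetroban replicate 1, the one labelled vehicle by treatment. It was 0.93 with the slope as a term and ranged from 0.70 to 1.14 with each library left out. It was 0.67 with KO ifetroban replicate 1 counted as vehicle, as its treatment label has it. Without both WT vehicle replicate 1 and KO ifetroban replicate 1 it was 0.96 and was called by edgeR, with slope and treatment then coinciding. Counts of the overlapping antisense gene Gm10603 were 6 to 24 per library against 346 to 1063 for Ucp3; whether counting used the strand is not stated in the labels.

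Ucp2 measured 36.6 and 33.4 CPM in WT vehicle, 49.3 and 27.3 in WT ifetroban, 57.7 and 52.0 in KO vehicle, and 69.5, 44.1 and 70.3 in KO ifetroban. Levels were higher in KO under both treatments and overlapped between treatments in both genotypes. KO exceeded WT by 0.65 ± 0.29 on the log2 scale under vehicle, without overlap (18.3% of all genes had KO wholly above WT there), and by 0.68 ± 0.27 under ifetroban, where KO ifetroban replicate 2 lay below WT ifetroban replicate 1. The difference under ifetroban was 0.31 without WT ifetroban replicate 2 and 1.17 without WT ifetroban replicate 1. The change with ifetroban was 0.16 ± 0.26 in KO and 0.13 ± 0.29 in WT, with overlap in both, and in WT it was -0.36 or 0.50 without WT ifetroban replicate 1 or 2. Macrophage and myeloid markers (10 of 10 tested) summed to 193 to 272 CPM in WT and 425 to 542 CPM in KO, and all 10 were higher in KO in both genotype comparisons. Their part in the Ucp2 difference was not tested, and in bulk tissue more cells of a type and more RNA per cell cannot be told apart.

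Since the 2 carriers differed in opposite directions by genotype, their proportion did too. Ucp3 per kb was 1.09 to 2.02 times Ucp2 per kb in the 4 WT libraries, and 0.435 to 0.741 times in 4 of the 5 KO libraries, with KO ifetroban replicate 2 at 1.18 inside the WT range. The lowest values, 0.435 and 0.532, were those of KO vehicle.

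Acot1 (ENSMUSG00000072949, chromosome 12, 84009502 to 84017670) and Acot2 (ENSMUSG00000021226, chromosome 12, 83987861 to 83993873) are tandem copies on the plus strand, 15628 bases apart. Both enzymes split long-chain acyl-CoA into free fatty acid and coenzyme A, Acot1 in the cytosol and Acot2 in the mitochondrial matrix. Their transcripts are alike enough that reads can be shared: 23.7% of the 50-base windows of Acot1 occur in Acot2, and 7.69% occur in Acot3. The longest identical stretch, 273 bases within the coding sequence of both, is printed because reads that fall wholly in it cannot be assigned to one of the 2 genes; it lies in exon 3 of the 3 exons of Acot1 (mm10 chr12:84017006-84017278) and at chr12:83992728-83993000 in Acot2.
Acot1 and Acot2 shared coding stretch, plus strand: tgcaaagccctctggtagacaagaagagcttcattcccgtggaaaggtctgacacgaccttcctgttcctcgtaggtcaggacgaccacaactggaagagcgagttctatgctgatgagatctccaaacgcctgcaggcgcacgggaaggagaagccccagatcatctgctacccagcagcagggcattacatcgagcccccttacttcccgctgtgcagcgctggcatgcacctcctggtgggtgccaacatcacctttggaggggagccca
The deposited values of both genes were fractional in all 9 libraries, as when reads are divided among genes, so the levels of each are uncertain by the reads they share. Fractional values were also deposited for Pdk4 in 5 libraries and for Plin5 and Ppargc1a in 6 each. Which genes share reads with those 3 was not tested.

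Acot1 measured 14.8 and 15.6 CPM in WT vehicle, 9.73 and 11.9 in WT ifetroban, 6.45 and 6.91 in KO vehicle, and 13.1, 27.6 and 7.43 in KO ifetroban. KO vehicle was the lowest group, each WT ifetroban library lay below each WT vehicle library, and the 3 KO ifetroban libraries were spread over most of the range, with replicate 3 next to KO vehicle. The log2 change with ifetroban was 1.27 ± 0.44 in KO and -0.49 ± 0.46 in WT. The genotype difference was -1.19 ± 0.47 under vehicle and 0.57 ± 0.43 under ifetroban, where the groups overlapped. KO ifetroban replicate 2 carried much of the first and the last of these: without it they were 0.63 and -0.06.

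Among the negative-slope libraries alone the Acot1 difference of KO from WT under vehicle was -1.14. That value sets 2 KO libraries against 1, WT vehicle replicate 1, whose Sgcd level lay within the KO range. Its summed myeloid and fibroblast markers, which were higher in KO, were 272 and 798 CPM. The KO libraries had 425 to 542 CPM and 1160 to 1835 CPM of them. Without WT vehicle replicate 1 and KO ifetroban replicate 1 the Acot1 difference under vehicle was -1.21, with slope and genotype then coinciding. The ifetroban change in KO was 0.97 among negative-slope libraries alone, on the 1 KO ifetroban library of that slope, and 1.08 with the slope as a term.

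Acot2 measured 81.4 and 98.9 CPM in WT vehicle, 85.6 and 93.1 in WT ifetroban, 67.3 and 78.7 in KO vehicle, and 79.0, 115 and 84.6 in KO ifetroban. The KO vehicle libraries were the 2 lowest, and KO ifetroban replicate 1 exceeded the higher of them by less than 1 CPM. Differences were 0.35 ± 0.18 with ifetroban in KO, -0.01 ± 0.20 with ifetroban in WT and -0.31 ± 0.20 for genotype under vehicle. Acot2, with a longest transcript of 2196 bases, also separated by length slope, at 67.3 to 81.4 CPM in the negative-slope and 84.6 to 115 CPM in the positive-slope libraries. Among the negative-slope libraries alone its ifetroban change in KO was 0.12, with KO ifetroban replicate 1 as the only ifetroban library. The Acot1 share of the counts of both genes ran from 8.06% in KO ifetroban replicate 3 to 19.4% in KO ifetroban replicate 2, a range within 1 group that held every other library.

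Pdk4 (ENSMUSG00000019577, chromosome 6, 5483351 to 5496309, minus strand) encodes a kinase that shuts the pyruvate dehydrogenase complex and so spares glucose when fat is burned. Its level was 183 and 150 CPM in WT vehicle, 158 and 208 in WT ifetroban, 218 and 118 in KO vehicle, and 243, 483 and 243 in KO ifetroban. The KO ifetroban libraries were the 3 highest of the 9, and the other groups overlapped each other. The difference with ifetroban was 0.94 ± 0.35 in KO (323 ± 139 CPM, SD, n = 3, against 168 ± 71, n = 2) and 0.14 ± 0.37 in WT, and KO exceeded WT under ifetroban by 0.82 ± 0.35, with no overlap (14.0% of all genes had KO wholly above WT there). Under vehicle the difference was 0.01 ± 0.37, and its sign was negative with DESeq2 size factors.

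KO ifetroban replicate 2 weighed on the size: without it the Pdk4 change in KO was 0.54, and without KO vehicle replicate 1 it was 1.45. It was 0.53 among negative-slope libraries alone, with KO ifetroban replicate 1 as the only ifetroban library. Pdk4 was not called under any of these choices.

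Angptl4 (ENSMUSG00000002289, chromosome 17, 33773750 to 33781575, minus strand) encodes a secreted inhibitor of lipoprotein lipase, which limits the release of fatty acids from circulating lipoproteins. It measured 4.10 and 1.66 CPM in WT vehicle, 3.47 and 6.79 in WT ifetroban, 4.14 and 3.81 in KO vehicle, and 12.5, 12.2 and 5.0 in KO ifetroban. Of the KO ifetroban libraries 2 stood well above all others and replicate 3 lay between the WT ifetroban ones. Changes with ifetroban were 1.31 ± 0.47 in KO and 0.85 ± 0.53 in WT, the latter from overlapping groups and 0.29 without WT ifetroban replicate 2 or 1.61 without WT vehicle replicate 1. With KO ifetroban replicate 1 counted as vehicle the change in KO was 0.36. Among the negative-slope libraries alone it was 1.65, on that same single KO ifetroban library.

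Plin5 (ENSMUSG00000011305, chromosome 17, 56111601 to 56117596, minus strand) encodes a coat protein that holds lipid droplets against mitochondria and restrains their lipolysis. Its promoter, from the same RefSeq table, is shown as the other one of the 8 with a match, to AGGTCA (capitals), 170 bases before the start; a second start site listed for this gene had the same 6 letters 13 bases after it.
Plin5 promoter, chr17:56117499-56117798, minus strand: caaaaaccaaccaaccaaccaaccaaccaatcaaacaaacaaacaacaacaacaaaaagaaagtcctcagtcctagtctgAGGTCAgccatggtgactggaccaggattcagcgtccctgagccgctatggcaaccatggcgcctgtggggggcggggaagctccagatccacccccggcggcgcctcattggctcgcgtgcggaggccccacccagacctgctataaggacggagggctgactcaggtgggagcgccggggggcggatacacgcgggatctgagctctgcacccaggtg
Its level was the steadiest of the 9, at 119 and 108 CPM in WT vehicle, 95.7 and 109 in WT ifetroban, 110 and 82.7 in KO vehicle, and 116, 112 and 107 in KO ifetroban. KO vehicle replicate 2 was the lowest library, and the others lay within 95.7 to 119 CPM. Differences were 0.21 ± 0.15 with ifetroban in KO, -0.15 ± 0.16 with ifetroban in WT and -0.24 ± 0.16 for genotype under vehicle, each with overlap, and the first was 0.02 without KO vehicle replicate 2.

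**Figure D2:**
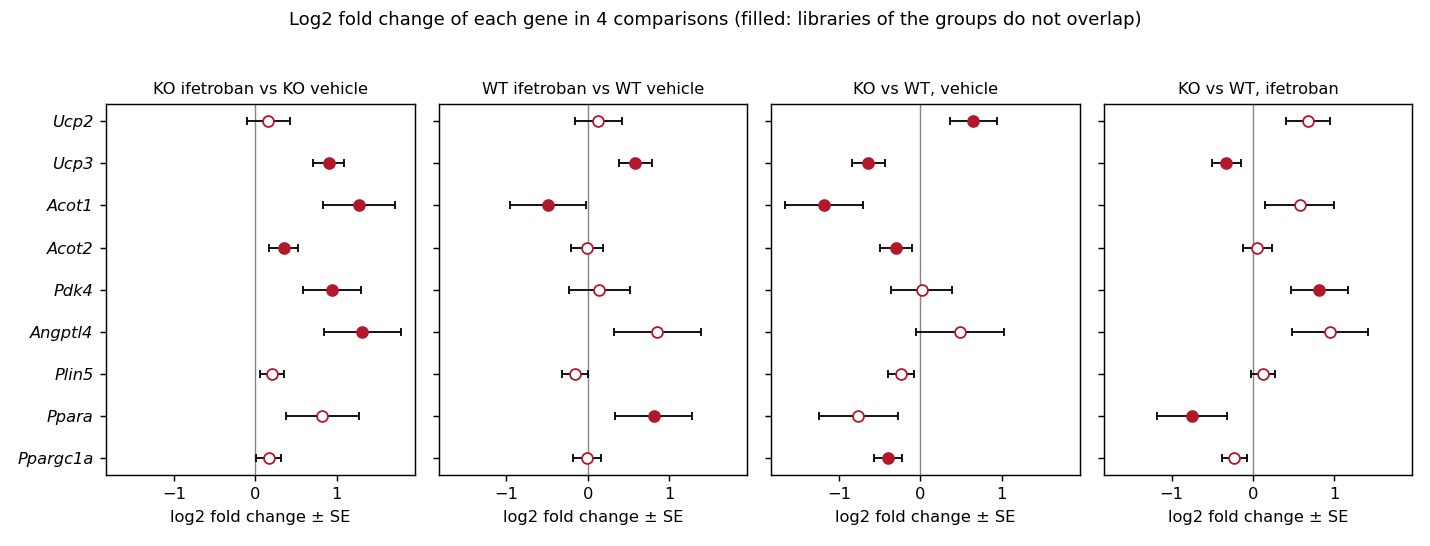
Log2 fold change ± SE (edgeR) of each gene in 4 comparisons, on one horizontal scale; filled points are genes whose libraries did not overlap between the 2 groups. With ifetroban in KO all 9 points lie above 0 and 5 are filled, with ifetroban in WT 3 are filled (Ucp3 and Ppara higher, Acot1 lower), for genotype under vehicle 5 (Ucp2 higher, 4 lower) and for genotype under ifetroban 3.

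Counted together, 5 of the 9 genes (Ucp3, Acot1, Acot2, Pdk4, Angptl4) had every KO ifetroban library above every KO vehicle library and 0 the reverse, where 10.4% and 9.76% of all tested genes did. In WT 2 were wholly higher and 1 wholly lower with ifetroban, where 17.6% and 13.8% of all genes were. Under vehicle 1 was wholly higher in KO and 4 wholly lower (Ucp3, Acot1, Acot2, Ppargc1a), against 18.3% and 17.6%, and under ifetroban 1 was wholly higher (Pdk4) and 2 wholly lower (Ucp3, Ppara), against 14.0% and 15.0%. KO vehicle enters both the ifetroban comparison in KO and the genotype comparison under vehicle, so these 2 comparisons share their libraries. The change in KO minus that in WT was positive for all 9, from 0.02 ± 0.64 for Ppara to 1.76 ± 0.64 for Acot1, with a median of 0.36 against 0.02 for all genes, 53.2% of which were above 0. It was positive for 8 by limma-voom or with the slope as a term, and for 7 with KO ifetroban replicate 1 counted as vehicle. With the replicate number as a block, or without both WT vehicle replicate 1 and KO ifetroban replicate 1, it was positive for 7. When single libraries were left out it was positive for 7 or 8, except without KO vehicle replicate 1, where it was positive for all 9.

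**Figure D3:**
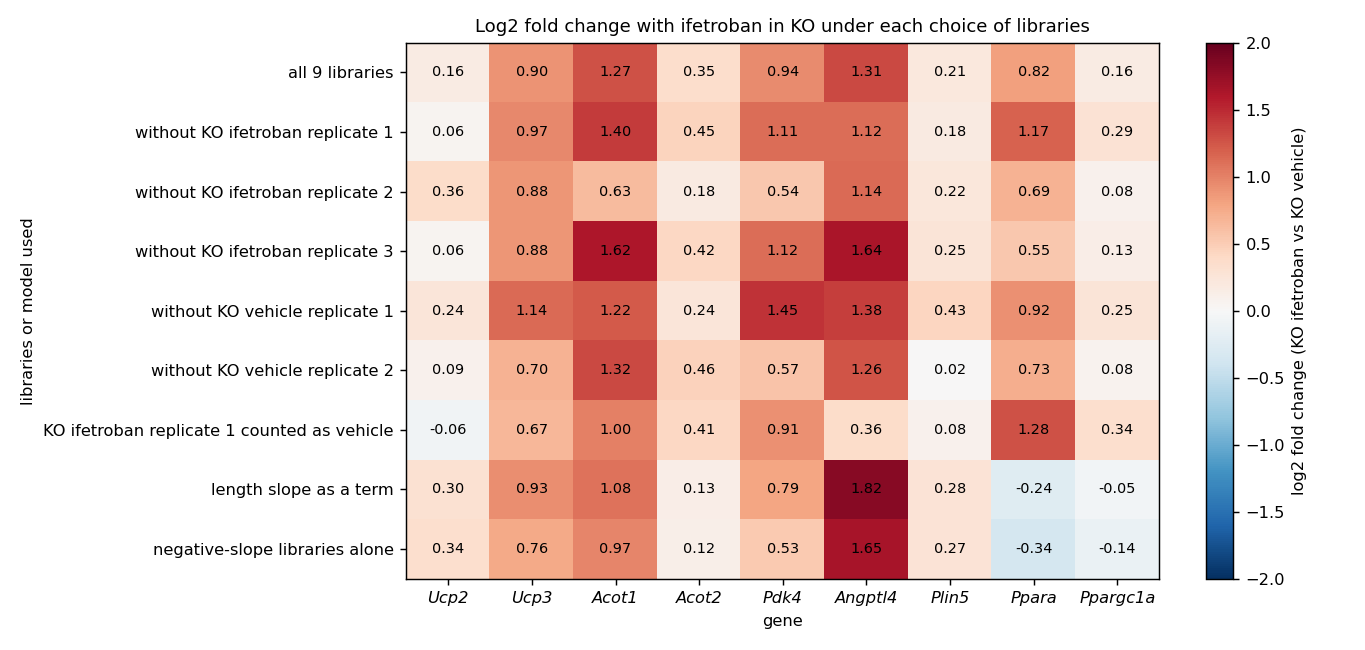
Log2 fold change of the 9 genes with ifetroban in KO under 9 choices of libraries or model, as numbers and on a colour scale from -2 (blue) to 2 (red). All 9 were positive with each KO library left out in turn, 8 with KO ifetroban replicate 1 counted as vehicle, and 7 with the slope as a term or with negative-slope libraries alone, where Ppara and Ppargc1a were negative.

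Other genes of the same pathways, 143 on 7 lists of which 129 were tested, gave no call by edgeR in any of the 5 comparisons. Of the other PPAR targets 40 of 48 were tested, with a median log2 change of 0.08 with ifetroban in KO (26 higher, 14 lower), -0.08 with ifetroban in WT (12 and 28), -0.25 for genotype under vehicle (5 and 35) and -0.08 between the ifetroban groups (11 and 29), and 2, 0, 11 and 3 of them had an unadjusted p under 0.05, as did 3.96%, 2.25%, 7.90% and 9.36% of all genes. The medians of all genes were 0.01, 0.01, -0.02 and -0.01. So 35 of the 40 lay lower in KO under vehicle, as 6 of the 9 did, where 47.1% of all genes were higher. The same held for 28 of 31 nuclear receptors and coregulators and 9 of 10 cardiomyocyte markers, while all 10 myeloid and all 8 fibroblast markers were higher. Both KO vehicle libraries had a negative slope, as did WT vehicle replicate 1 alone in its group, and these counts were not split by slope. The median with ifetroban in KO, 0.08, stood beside 0.82 for the 9. The 9 were chosen with these contrasts known, so nothing is read from that gap.

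Among these targets Slc27a1, a fatty acid transporter, had -0.62 ± 0.18 for genotype under vehicle and 0.44 ± 0.16 with ifetroban in KO (adjusted p = 0.375 and 0.862, edgeR). Plin4, another droplet coat gene, had -0.64 ± 0.23 and 0.65 ± 0.22 (adjusted p = 0.51 and 0.862). Cpt1b, the gate for fatty acid entry into mitochondria, differed little, at -0.29 ± 0.14 and 0.21 ± 0.13.

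**Figure D4:**
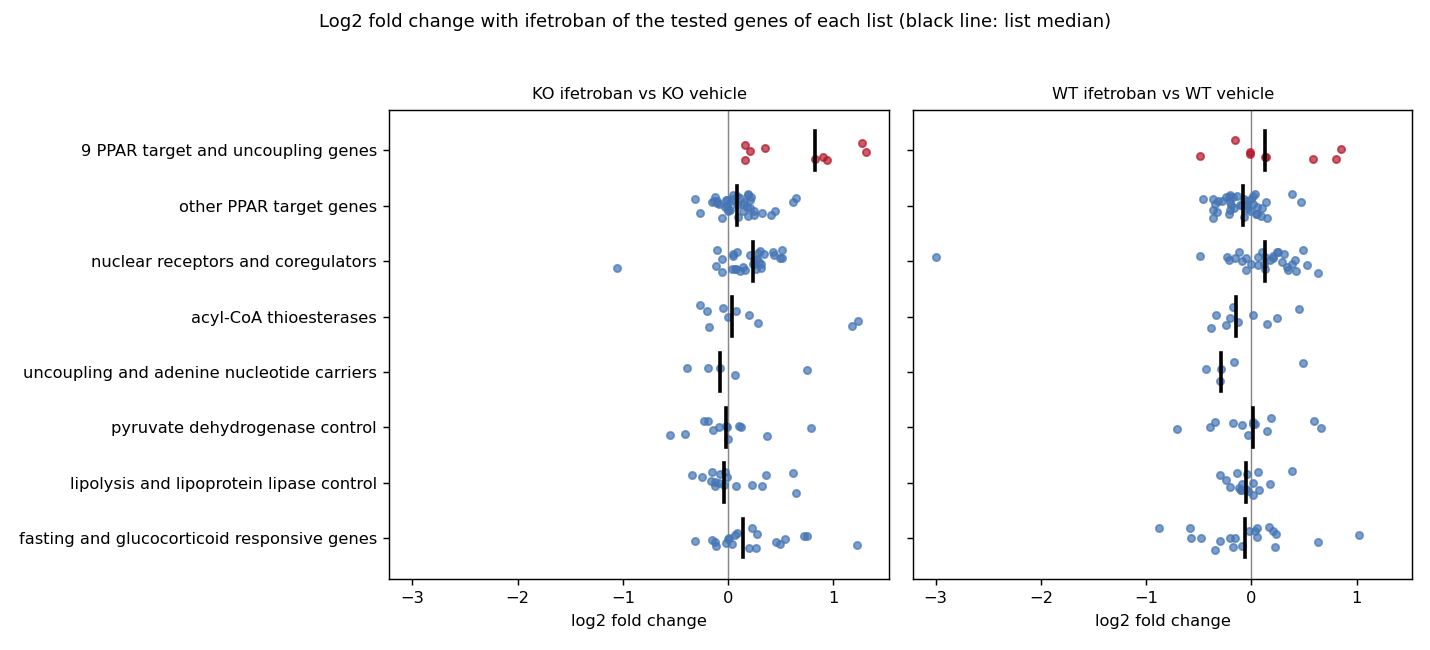
Log2 fold change with ifetroban of each tested gene of 8 lists, in KO (left) and WT (right), with the list median as a black line. The 9 genes (red) have a median of 0.82 in KO and 0.13 in WT, and the other 7 lists have medians of -0.08 to 0.23 in KO and -0.29 to 0.13 in WT.

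Nuclear receptors and coregulators (31 of 31 tested) had medians of 0.23 with ifetroban in KO, 0.13 with ifetroban in WT, -0.21 for genotype under vehicle and -0.18 for that under ifetroban. Ppard, the other PPAR of muscle, had 0.25 ± 0.12 with ifetroban in KO, Esrra, an estrogen-related receptor that works with PGC-1 alpha, 0.09 ± 0.11, and the fasting-responsive factor Klf15 0.07 ± 0.31. The smallest unadjusted p in the list were those of the PGC-1 relative Pprc1 (0.49 ± 0.22) and the acetyltransferase Crebbp (0.51 ± 0.23). Crebbp too followed the slope, with 40.8 to 42.8 CPM in the negative-slope and 63.7 to 68.7 CPM in the positive-slope libraries.

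The other acyl-CoA thioesterases (10 of 13 tested) had a median of 0.04 with ifetroban in KO, 5 higher and 5 lower. Acot3 and Acot4, which share windows with Acot1, had 1.17 ± 0.38 and 1.23 ± 0.55 at levels of 0.36 to 1.18 and 0.38 to 1.61 CPM. Acot3 had the directions of Acot1: -1.40 ± 0.41 for genotype under vehicle, -0.38 ± 0.38 with ifetroban in WT and 1.55 ± 0.54 for the interaction, none of them called. By library it differed from Acot1, with 0.80, 0.95 and 0.77 CPM in KO ifetroban and with WT groups that overlapped. Reads shared with Acot1 were not tested as a part of this. The other uncoupling and adenine nucleotide carriers (5 of 7 tested) had a median of -0.08 in KO, with Slc25a30 at 0.75 ± 0.38 and Slc25a14 at -0.39 ± 0.36.

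The genes that set pyruvate dehydrogenase activity beside Pdk4 (13 of 13 tested) had a median of -0.02 with ifetroban in KO, 4 higher and 9 lower. The kinase Pdk3 had -0.55 ± 0.29 and the pyruvate carrier subunit Mpc1 -0.41 ± 0.23. The genes of lipolysis and lipoprotein lipase control (17 of 18 tested, median -0.04) included Lipe, hormone-sensitive lipase, with 0.61 ± 0.15 with ifetroban in KO and 0.06 ± 0.16 in WT. The KO vehicle libraries had 30.2 and 28.3 CPM of Lipe and the KO ifetroban libraries 41.1, 48.4 and 44.9, without overlap. Fasting and glucocorticoid responsive genes (20 of 20 tested) had a median of 0.14 in KO and -0.06 in WT, with Cdkn1a at 0.72 ± 0.35 and Lcn2 at 1.23 ± 0.74 in KO. Each of these genes failed the test by edgeR (adjusted p = 0.862 for ifetroban in KO).

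Genes closest to each member over the 9 libraries were found by the mean absolute difference of log2 CPM centred on its mean, among 7653 tested genes whose SD was at least 0.2. For Ucp3 they were the bifunctional glycolytic regulator Pfkfb1 (0.16) and Plin4 (0.18), for Ucp2 Nnmt (0.12) and the actin nucleation subunit Arpc1b (0.13), and for Pdk4 Zfp697 (0.20) and the receptor kinase Grk5 (0.21). Grk5 measured 53.7 CPM in KO ifetroban replicate 2 and 23.8 to 37.5 CPM elsewhere. Those of Ppara were Pdpr (0.09), a subunit of the pyruvate dehydrogenase phosphatase, and Foxn3 (0.13), and they share its split by slope: Pdpr was 41 to 53.2 CPM in negative-slope and 105 to 156 CPM in positive-slope libraries. For Acot1 they were Adra1b (0.23) and Col11a2 (0.24), for Acot2 Fnbp4 (0.07) and Fam199x (0.07), for Ppargc1a Map4k2 (0.04), and for Angptl4, loosely, Ikzf4 (0.37) and Clcf1 (0.39). Plin5, with an SD of 0.16, varied too little for this. Among the members themselves the closest pairs were Plin5 with Ppargc1a and Acot2 with Ppargc1a (0.17 each), and the farthest Angptl4 with Ppara (0.98).

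Because several of the 9 are also made in fat, adipocyte markers were set beside them. Without Fabp4, which endothelium makes as well, the 7 listed adipocyte markers summed to 0.26 to 1.12 CPM in WT, 3.85 to 4.56 in KO vehicle and 1.73 to 4.23 in KO ifetroban, with Adipoq at 0 to 0.34 and Plin1 at 0 to 0.38 CPM in all libraries. Plin1 and Cidec had higher means in KO ifetroban (0.26 and 0.22 CPM) than in KO vehicle (0.21 and 0.14 CPM), and the others of the 7 had lower ones. Fibroblast markers (8 of 8 tested) summed to 798 to 989 CPM in WT, 1594 and 1835 in KO vehicle and 1160 to 1544 in KO ifetroban, and cardiomyocyte markers to 62906 to 65262 CPM in WT and 52606 to 58419 CPM in KO. Blood markers (5 of 5 tested) summed to 541 and 1644 CPM in WT vehicle and 159 and 413 CPM in WT ifetroban, each of the 5 wholly lower with ifetroban there (median -1.91, 2 with an unadjusted p under 0.05, none called), and to 226 to 1211 CPM in KO. Skeletal muscle markers (2 of 8 tested) summed to 11.2 to 25.9 CPM in 8 libraries and 43.2 CPM in KO ifetroban replicate 3, where Myh1 was 8.15 CPM against at most 0.17 elsewhere. Ucp3, which skeletal muscle also makes, was 32.0 CPM in that library and 32.1 CPM in KO ifetroban replicate 2, and its change with ifetroban in KO was 0.88 without replicate 3. The part of these cell types in the differences of the 9 genes, that of Ucp3 included, was not tested.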

How the data were processed

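The deposited values are expected counts per gene, 1 set per library, made by the authors with bcl2fastq, STAR and Partek on mm10, per the submitters' processing notes, which give no versions or roles. How reads were assigned to genes is not stated there. Of these values 28.2% were not whole numbers, and 8 pseudogenes took 19.8% to 28.6% of a library's counts. From them the following was computed. Expected counts were rounded, filtered with filterByExpr on group (minimum count 10, 15549 genes), scaled with TMM factors and fitted with the quasi-likelihood test of edgeR 4.0.16 (R 4.3.3; robust dispersion and fit, 4 group means, common biological coefficient of variation 0.176), with Benjamini-Hochberg adjustment over all genes and a threshold of 0.05. The SE is the size of the log2 change over the square root of F. CPM are TMM-scaled, and log2 CPM used a prior count of 2. Replicates of the same group differed by 10.99 to 65.4 times the counting variance (chi-square per degree of freedom), so none was a mere re-sequencing of another library of its group. That does not show that they came from separate animals. Libraries of different groups were not compared in this way. The script was tested on simulated data with known changes. Those data had the same spread for every gene and no length slope, so the test does not cover libraries that differ in slope.

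Libraries were grouped by title. The 9 genes, the lists, the tests and the split by length slope were chosen with earlier results of these data known. Named are the 9 genes, up to 3 called genes of each list or otherwise its 2 with the smallest unadjusted p for ifetroban in KO, always Slc27a1, Cpt1b, Ppard, Esrra and Klf15, and the 2 genes most like each member; 2 genes that this rule names are not reported here. Sgcd, Gm10603, Myl7, Adipoq, Plin1, Fabp4 and Myh1 were named for checks, after their values were seen. Coordinates are those of the deposited annotation. Gene identifiers, transcripts and lengths are from GENCODE M21 (Acot1 and Angptl4 differ there in start or end), and promoters from RefSeq. Alternatives were DESeq2 1.42.0 size factors and test, limma-voom (limma 3.58.1), no filter, a replicate block, KO ifetroban replicate 1 as vehicle, the slope as a term, libraries of 1 slope alone and each library left out. Leaving out both WT vehicle replicate 1 and KO ifetroban replicate 1 was chosen after seeing the data. Fgf21, Cyp4a10, Cyp4a14, Ucp1, Lep and Sln were not analysed here.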

Additional observations from a re-analysis of the deposited data

Results flagged for a closer look

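Acot1 was the one gene of the 9 whose ifetroban difference had opposite directions in the 2 genotypes with no overlap in either: all 3 KO ifetroban libraries were above both KO vehicle libraries, and both WT ifetroban libraries were below both WT vehicle libraries. The change in KO minus that in WT was 1.76 ± 0.64 on the log2 scale. It is given as a description, since Acot1 was chosen on these contrasts. Of all tested genes 284, or 1.83%, had such opposite directions, and the interaction fit of edgeR called 0 genes (298 at an unadjusted p under 0.05, and 0 called by DESeq2 or limma-voom). Leaving out KO ifetroban replicate 2 gave 1.15 and leaving out replicate 3 gave 2.14. Reads shared with Acot2 and Acot3 were not tested as a part of it.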

How the results depend on the processing

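For the 9 genes, 757 of 801 single values kept within the spread between libraries over the alternatives. That count includes fits that left out a library from outside the comparison, which hardly move its log2 change. The spread is that within groups, and WT vehicle and KO ifetroban each mix both slopes. The count is therefore no measure of how firm the values are. Genes past the threshold for ifetroban in KO were 0, but 18 among negative-slope libraries alone and 1856 without both doubted libraries (WT vehicle replicate 1 and KO ifetroban replicate 1); of the 9 genes, the other PPAR targets and the regulators, 1 (Angptl4) and 19 passed then. For genotype under vehicle 8 genes passed, 144 by the DESeq2 test, 18 with no filter, 28 with KO ifetroban replicate 1 as vehicle, 118 with the slope as a term, 247 among negative-slope libraries alone and 1541 without both doubted libraries, and of those 3 lists 2 (Eci1 and Etfb), 1 (Acot1) and 16 passed under the last 3. For genotype under ifetroban 6 passed, 290 by the DESeq2 test, 19 with no filter, 143 with the slope as a term, 61 among positive-slope libraries alone and 136 without both doubted libraries. For the interaction 0 passed, and 72 without both doubted libraries. The median of the 9 genes for ifetroban in KO, 0.82, was 0.68 by limma-voom, 0.41 with KO ifetroban replicate 1 as vehicle, 0.30 with the slope as a term, 0.34 among negative-slope libraries alone and 0.96 without both doubted libraries. For genotype under vehicle, -0.31, it was -0.14, -0.15 and -0.43 under the last 3. Leaving out both doubted libraries makes slope and group coincide for KO vehicle against KO ifetroban and against WT vehicle, so those counts cannot be told apart from the slope. Among negative-slope libraries alone each comparison has a single library in 1 arm, so no call of a gene is read from those counts. The cause of the other shifts was not tested.

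With each library left out, the median of the 9 genes ran from 0.54 to 0.97 for ifetroban in KO, 0.05 to 0.18 for ifetroban in WT, -0.50 to -0.16 for genotype under vehicle, -0.062 to 0.22 for genotype under ifetroban (negative without KO ifetroban replicate 2) and 0.17 to 0.56 for the interaction. Genes past the threshold ran from 2 (without KO vehicle replicate 1) to 15 (without KO ifetroban replicate 1) for genotype under vehicle and from 2 (without WT ifetroban replicate 1) to 15 (without KO ifetroban replicate 3) for genotype under ifetroban, and were 0 for the other comparisons.

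The replicate numbers do not pair the libraries: deviations of replicate 1 correlated by -0.04 to 0.50 between groups, over 0.1 in 1 of 6 pairs of groups (WT vehicle with KO ifetroban). With the replicate block, genes past the threshold were 1 for ifetroban in KO, 56 for genotype under vehicle and 172 for genotype under ifetroban, and the median of the 9 genes for ifetroban in KO was 0.39. Ifetroban in WT and genotype under ifetroban could be formed only among positive-slope libraries, ifetroban in KO and genotype under vehicle only among negative-slope ones, and the interaction in neither. Counts of 41 to 384 limit Angptl4 most.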
